A study of Mus musculus with 19 samples.

Results

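Matrix metalloproteinases (MMPs) are zinc-dependent enzymes that cut collagens and other proteins of the extracellular matrix, and tissue inhibitors of metalloproteinases (TIMPs) bind their active sites and block them. In expanding adipose tissue the balance of the enzymes and their inhibitors takes part in matrix remodelling around adipocytes and in the entry of macrophages. The described set was 10 genes of these families, namely Timp1, Timp2, Timp3, Timp4, Mmp2, Mmp3, Mmp9, Mmp12, Mmp14 and Mmp19, found by symbol among the 24237 genes used of the expression table. All 10 were found, each in a single row, and 8 of them passed the filter on low values described below. The set was chosen by the measured differences between the 2 groups fed fat, and in particular by the opposite changes of Timp1 and Timp4.

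The samples were epididymal white adipose tissue (eWAT), the fat pad beside the epididymis, from male C57Bl6/J mice without a genetic change, allocated at 9 to 10 weeks of age and kept for 17 weeks on 1 of 4 diets. The low-fat diet (LFD) gave 10% and the high-fat diet (HFD) 60% of energy as fat, and the low and normal Mg2+ diets held 0.03% and 0.21% MgO by weight. Of these groups, NormMg-LFD held 4 mice and LowMg-LFD, NormMg-HFD and LowMg-HFD held 5 mice each, with 1 RNA-seq library per mouse. Values are FPKM, fragment counts scaled by transcript length and by the mapped reads of the library, which makes levels of different genes comparable per length.

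Each library held between 12986441 and 13027028 reads, of which 86.12 to 90.41% were mapped. The adipocyte markers summed to 13939 FPKM or more in every mouse, with Fabp4, a fatty acid carrier, as the highest. Libraries with RNA of neighbouring tissues stood apart. All 16 exocrine pancreas markers were highest in NormMg-LFD mouse 3, where they summed to 1888 FPKM against 12.5 to 61.7 in the other mice. All 12 epididymis markers were highest in LowMg-LFD mouse 4, with a sum of 269 FPKM against at most 41.3 elsewhere. Mmp7, an epithelial metalloproteinase outside the described set, was at 23.9, 90.5, 73.2 and 72.3 FPKM in NormMg-LFD mice 3 and 4, LowMg-LFD mouse 4 and LowMg-HFD mouse 4, and at no more than 4.74 FPKM in the other mice. The study's methods name 1 LowMg-HFD sample as left out for pancreatic tissue, whereas the pancreas markers summed to 24.1 to 51.2 FPKM in the LowMg-HFD mice, of which Cela1, an elastase detected in every group, was the highest. Results that changed without these libraries are given below with both values.

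Timp1 is a secreted inhibitor that is induced by inflammatory signals, and Timp4 is a secreted inhibitor with high expression in fat and heart. The stretch before the start of each of the 2 genes is shown because their levels differed between the groups in opposite directions. Those of Mmp3, a stromelysin, and Mmp12, the macrophage elastase, are also shown. These genes differed in the same direction as Timp1 and hold matches to the motifs named below. Timp2 and Mmp14 differed in that direction as well, but their stretches hold no match and are not printed. RefSeq sequences (GRCm38.p6) of the 250 bases before the annotated start were at hand for 7 of the 10 members. Each line reads 5′ to 3′ along the gene, and capitals mark matches on either strand to the AP-1 motif TGAGTCA, the Ets-type PEA3 motif AGGAAGT or the TATA motif TATAAA, which do not overlap one another here. Timp1 starts on the forward strand after chrX:20869916-20870165, Timp4 on the reverse strand after chr6:115252206-115252455, Mmp3 on the forward strand after chr9:7445572-7445821, and Mmp12 has 2 annotated starts on the forward strand, after chr9:7344147-7344396 and chr9:7347124-7347373.
Timp1: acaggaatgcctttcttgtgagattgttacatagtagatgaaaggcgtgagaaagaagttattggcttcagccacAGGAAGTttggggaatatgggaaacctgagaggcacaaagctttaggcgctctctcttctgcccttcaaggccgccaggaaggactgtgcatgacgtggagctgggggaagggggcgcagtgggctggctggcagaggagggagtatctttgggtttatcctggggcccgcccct
Timp4: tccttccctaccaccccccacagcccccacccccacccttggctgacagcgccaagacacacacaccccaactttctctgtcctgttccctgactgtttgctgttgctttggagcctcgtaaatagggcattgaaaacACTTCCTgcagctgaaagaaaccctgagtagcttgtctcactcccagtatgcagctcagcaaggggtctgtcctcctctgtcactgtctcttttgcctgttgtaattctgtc
Mmp3: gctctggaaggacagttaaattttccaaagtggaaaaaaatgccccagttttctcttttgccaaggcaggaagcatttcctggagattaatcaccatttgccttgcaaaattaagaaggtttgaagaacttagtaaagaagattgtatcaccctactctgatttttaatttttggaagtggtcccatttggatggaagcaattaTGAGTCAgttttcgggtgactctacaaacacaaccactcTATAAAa
Mmp12, first start: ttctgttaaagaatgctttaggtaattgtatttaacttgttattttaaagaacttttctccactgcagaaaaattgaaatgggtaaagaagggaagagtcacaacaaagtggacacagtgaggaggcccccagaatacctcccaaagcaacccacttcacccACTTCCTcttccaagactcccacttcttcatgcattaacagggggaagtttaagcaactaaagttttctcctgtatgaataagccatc
Mmp12, second start: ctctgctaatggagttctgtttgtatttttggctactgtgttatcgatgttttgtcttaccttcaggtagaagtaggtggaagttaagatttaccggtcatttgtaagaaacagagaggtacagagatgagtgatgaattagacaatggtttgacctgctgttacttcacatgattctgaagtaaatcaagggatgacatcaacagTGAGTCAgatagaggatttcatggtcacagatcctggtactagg
A PEA3 match lay 175 bases before the start of Timp1, 112 bases before that of Timp4 and 88 bases before the first start of Mmp12. An AP-1 match lay 46 bases before the start of Mmp3 and 44 bases before the second start of Mmp12. Mmp3 also held a TATA match, 7 bases before its annotated start. Of 32851 promoter entries of the same length, 4.46% held the AP-1 motif, 7.69% the PEA3 motif and 12.4% the TATA motif. The stretches of Timp2, Timp3 and Mmp14 held none of these letters. Mmp2, Mmp9 and Mmp19 are not shown.

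All 4 TIMP genes were expressed in eWAT, and their order depended on the diet. In NormMg-LFD mice the levels per length were highest for Timp2 (166 ± 29.7 FPKM, SD, n = 4) and Timp4 (156 ± 24.4 FPKM), whose ranges overlapped, followed by Timp3 (91.6 ± 4.62 FPKM). Timp1 was lowest, at 2.995 ± 2.13 FPKM.

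Timp1 was measured at 0.42, 2.58, 5.58 and 3.4 FPKM in the NormMg-LFD mice and at 0.8, 3.22, 1.22, 5.01 and 3.01 FPKM in the LowMg-LFD mice. In the NormMg-HFD mice the values were 35.7, 14.6, 105, 46.2 and 18.9 FPKM, and in the LowMg-HFD mice 4.27, 10.01, 3.06, 5.5 and 2.99 FPKM. Every NormMg-HFD mouse thus lay above every mouse of the other groups, while the ranges of those 3 groups overlapped. The mean of NormMg-HFD (44.2 ± 36.6 FPKM) was 14.7 times that of NormMg-LFD and 8.55 times that of LowMg-HFD (5.17 ± 2.896 FPKM). NormMg-HFD mouse 3 held the highest value, and without it the group mean was 28.8 ± 14.7 FPKM (n = 4). The 10 neutrophil markers summed to 160 FPKM in that mouse against 23.1 to 33.5 FPKM in the other NormMg-HFD mice, with S100a8 at 70.5, S100a9 at 59.99, Csf3r at 18.1, Cxcr2 at 5.41 and Retnlg at 4.07 FPKM, each above the other NormMg-HFD mice. Ly6g, a defining neutrophil surface protein, was at 0.37 FPKM there and listed at 0 in every other mouse, and Camp was listed at 0 in all NormMg-HFD mice. Elane, at 0.94 FPKM, was also highest of the group there. Mpo (0.54 FPKM) and Ltf (0.35 FPKM) were not, with 0.56 FPKM of Mpo in NormMg-HFD mouse 1 and 0.71 FPKM of Ltf in mouse 5. Over the list, 3 of 10 markers exceeded 1 FPKM in every NormMg-HFD mouse, and their part in the Timp1 level was not tested. The list summed to 8.33 to 11.2 FPKM in NormMg-LFD, 6.54 to 21.4 FPKM in LowMg-LFD and 11.9 to 24.3 FPKM in LowMg-HFD mice. Per 1000 FPKM of the macrophage markers described below, Timp1 was at 4.53 to 21.6 FPKM in NormMg-HFD mice and at 0.52 to 6.58 FPKM in NormMg-LFD, 1.41 to 4.74 FPKM in LowMg-LFD and 1.57 to 5.98 FPKM in LowMg-HFD mice, so that on this scale NormMg-HFD overlapped each of the other groups.

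Timp4 was low in the mice in which Timp1 was high. It was at 136, 192, 146 and 152 FPKM in the NormMg-LFD mice and at 93.5, 126, 177, 133 and 140 FPKM in the LowMg-LFD mice. In the NormMg-HFD mice it was at 49.6, 40.5, 23.4, 31.6 and 63.1 FPKM, and in the LowMg-HFD mice at 102, 80.6, 140, 114 and 128 FPKM. The 5 NormMg-HFD mice lay below all others, and the other 3 groups overlapped. The mean of NormMg-LFD was 3.76 times that of NormMg-HFD (41.6 ± 15.5 FPKM), and the mean of LowMg-HFD (113 ± 23.1 FPKM) was 2.71 times it. NormMg-HFD mouse 3, with the highest Timp1 level, had the lowest Timp4 level, and NormMg-HFD mouse 5 had the highest Timp4 level of its group.

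**Figure D1:**
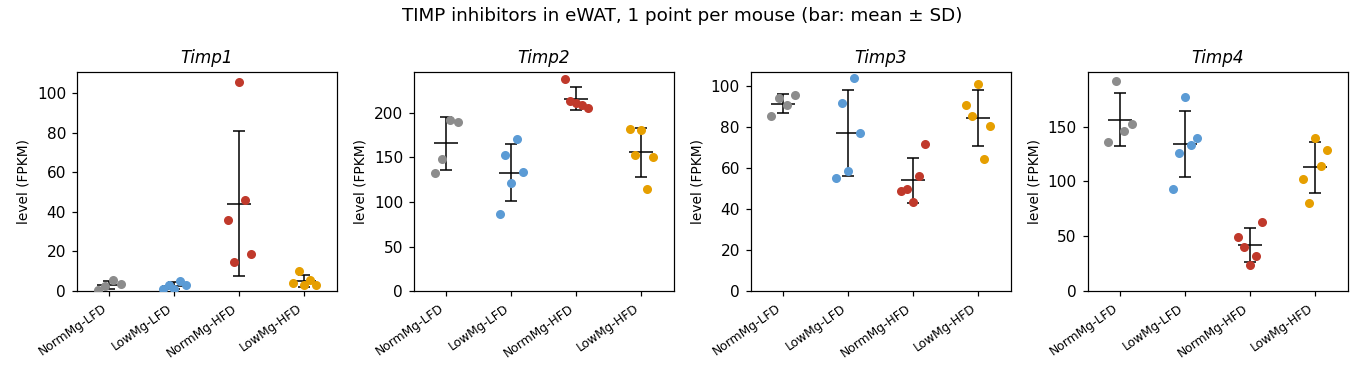
Level in FPKM (y axis, from 0) of the 4 TIMP genes in each mouse (points) of the 4 diet groups (x axis), with the group mean and SD as bars. For Timp1 the NormMg-HFD points (14.6 to 105 FPKM) lie above all others, and for Timp4 they (23.4 to 63.1 FPKM) lie below all others.

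The ratio of Timp4 to Timp1, both per length, brought the 2 patterns together. Its median was 59.5 in NormMg-LFD mice, 46.4 in LowMg-LFD mice and 23.9 in LowMg-HFD mice, but 1.39 in NormMg-HFD mice, with the highest NormMg-HFD mouse at 3.33 and the lowest mouse of the other groups at 8.05. On the log2(FPKM + 1) scale the Timp1 and Timp4 levels had a Pearson r of -0.89 over the 19 mice and of -0.45 after the mean of each group was taken off. NormMg-HFD mice lie apart from the others on both genes and the mice of a group share their diet, so both values are descriptions.

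Because the genes were selected on these values, no test was made for Timp1 or Timp4 in a contrast that holds a group fed fat. As a description, the difference on the log2(FPKM + 1) scale between NormMg-HFD and NormMg-LFD was 3.35 ± 0.52 (SE) for Timp1 and -1.95 ± 0.23 for Timp4. Between LowMg-HFD and LowMg-LFD it was 0.78 ± 0.49 for Timp1 and -0.24 ± 0.22 for Timp4. Between LowMg-HFD and NormMg-HFD it was -2.64 ± 0.49 for Timp1 and 1.47 ± 0.22 for Timp4, and without any single mouse it ranged from -2.94 to -2.24 and from 1.29 to 1.64. The tests of fat given below for the other members use the NormMg-HFD or LowMg-HFD mice, which also enter the contrast by which the set was chosen. Their p values are therefore not independent of that choice and are printed as descriptions.

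Timp2, an inhibitor that also takes part in the activation of Mmp2 by Mmp14 at the cell surface, was at 133 to 192 FPKM in NormMg-LFD, 86.2 to 171 FPKM in LowMg-LFD, 206 to 239 FPKM in NormMg-HFD and 115 to 182 FPKM in LowMg-HFD mice. The mean of NormMg-HFD (216 ± 13.0 FPKM) was 1.30 times that of NormMg-LFD and the groups did not overlap, but the difference on the log2 scale did not pass the threshold over all genes (0.39 ± 0.17, adjusted p = 0.0752, limma). With only the 2 compared groups in the fit the adjusted p was 0.0173, and without LowMg-LFD mouse 1 it was 0.0318 (limma). That mouse enters this contrast only through the shared estimate of the spread and the filter, which kept 8294 genes without it. The difference between LowMg-HFD and LowMg-LFD was 0.25 ± 0.16 (adjusted p = 0.321, limma).

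Timp3, an inhibitor that binds to the matrix and also blocks ADAM proteinases, was lower in NormMg-HFD mice. Its values were 85.4, 94.5, 90.9 and 95.6 FPKM in the NormMg-LFD mice and 48.8, 49.95, 43.6, 56.4 and 71.8 FPKM in the NormMg-HFD mice. The groups did not overlap, the ratio of the means was 1.69, and Timp3 fell by 0.77 ± 0.17 on the log2 scale (adjusted p = 0.0017, limma). On the low Mg2+ diet the LowMg-HFD mice (64.5 to 101 FPKM) and the LowMg-LFD mice (55.04 to 104 FPKM) overlapped, with a difference of 0.15 ± 0.16 (adjusted p = 0.57, limma).

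3 of the 4 inhibitor genes lie inside a synapsin gene on the opposite strand. By the GENCODE annotation of GRCm38, Timp1 (chrX:20870166-20874735, forward strand) lies within Syn1, Timp3 (chr10:86300372-86349506, forward strand) within Syn3 and Timp4 (chr6:115241892-115252205, reverse strand) within Syn2. The exons overlap by 0 bases for Timp1, 1733 bases for Timp3 and 90 bases for Timp4. Whether the libraries kept strand is not given in the sources used here, so the reads of Timp3 and Syn3 in the shared stretch cannot be told apart. Syn3 was at 18.6 to 46.8 FPKM and followed Timp3 over the 19 mice (r = 0.98, and 0.96 for deviations from the group means), with a fall of 0.76 ± 0.17 on the log2 scale in NormMg-HFD against NormMg-LFD mice (adjusted p = 0.00206, limma). Syn1 was at no more than 2.13 FPKM and Syn2 at no more than 4.79 FPKM in any mouse, and over the 19 mice r was 0.74 between Syn1 and Timp1 and 0.73 between Syn2 and Timp4, but 0.08 and 0.06 for deviations from the group means.

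The summed level of the 4 TIMP genes overlapped between all groups, whereas the shares of Timp1, Timp2 and Timp4 in it set NormMg-HFD mice apart from the others. The sum was 355 to 442 FPKM in NormMg-LFD, 236 to 414 FPKM in LowMg-LFD, 319 to 384 FPKM in NormMg-HFD and 299 to 425 FPKM in LowMg-HFD mice. Timp2 made up 55.03 to 67.1% of the sum in NormMg-HFD mice and at most 48.0% in any other mouse. Timp4 made up 11.8 ± 4.34% of it in NormMg-HFD mice, against 37.5 ± 4.64% in NormMg-LFD, 38.9 ± 6.77% in LowMg-LFD and 31.6 ± 5.74% in LowMg-HFD mice. Timp1 made up 4.57 to 27.5% in NormMg-HFD mice and at most 3.05% elsewhere. The share of Timp3, 11.4 to 19.9% in NormMg-HFD mice, overlapped that in LowMg-LFD mice (16.4 to 25.2%). These shares follow from values that chose the genes and are given without a test.

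**Figure D2:**
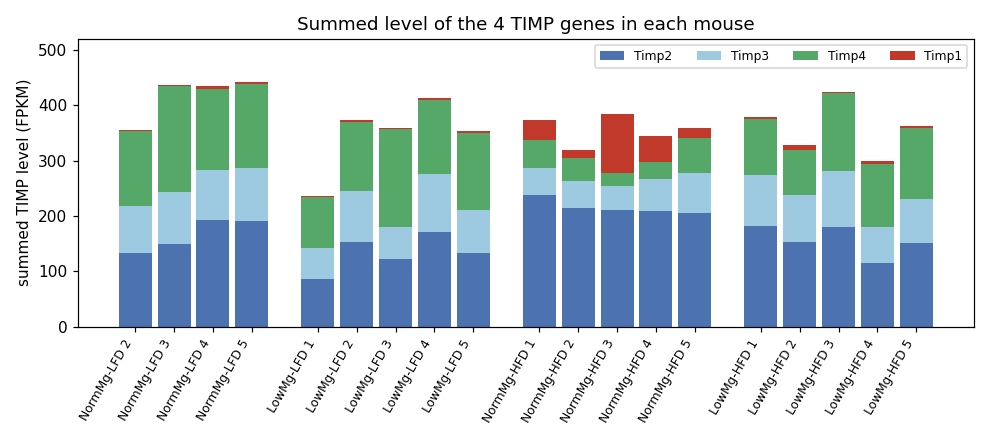
Summed level in FPKM (y axis, from 0) of Timp2, Timp3, Timp4 and Timp1 in each mouse (x axis, ordered by group), stacked by gene. The height spans 319 to 384 FPKM in NormMg-HFD mice, within the spread of the other groups, while the Timp4 part is smaller and the Timp1 part larger there.

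Among the proteinases, Mmp12 had the widest range in FPKM. In the NormMg-LFD mice it was at 5.18, 3.88, 15.85 and 7.45 FPKM and in the LowMg-LFD mice at 2.77, 12.9, 4.21, 10.6 and 10.3 FPKM. In the NormMg-HFD mice it was at 545, 223, 479, 351 and 272 FPKM, and in the LowMg-HFD mice at 319, 220, 39.3, 26.2 and 69.6 FPKM. Both groups fed fat lay above both groups fed the LFD. Within LowMg-HFD, mice 1 and 2 stood near the lower NormMg-HFD values and the other 3 mice, with a mean of 45.0 ± 22.2 FPKM, far below.

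Mmp12 passed the filter only through the HFD groups, since fewer than 4 mice of either LFD group exceeded 8 FPKM, so its tests are also given from the fit of all genes without a filter. It rose with fat on both Mg2+ diets. On the normal Mg2+ diet the ratio of the means was 46.2 and the difference on the log2 scale was 5.45 ± 0.60 (adjusted p = 2.15e-06, and 1.98e-05 without a filter, limma). On the low Mg2+ diet the ratio was 16.5 and the difference 3.44 ± 0.57 (adjusted p = 0.00093, and 0.00513 without a filter, limma). Between LowMg-HFD and NormMg-HFD mice the Mmp12 values overlapped, and the description of that difference is -2.002 ± 0.57, or -2.46 to -1.58 without any single mouse.

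Macrophage markers moved with Mmp12. The 16 markers, all of them over 1 FPKM in every mouse, summed to 725 to 848 FPKM in NormMg-LFD, 566 to 1058 FPKM in LowMg-LFD, 3109 to 4885 FPKM in NormMg-HFD and 920 to 2716 FPKM in LowMg-HFD mice. With fat, 14 of the 16 rose and 1 fell on the normal Mg2+ diet, and 10 rose and 0 fell on the low Mg2+ diet, where 37.4% and 15.9% of all genes were called. LowMg-HFD mice 1 and 2, which had the highest Mmp12 levels of their group, also had its highest sums, 2716 and 2341 FPKM. Per 1000 FPKM of macrophage markers, the median Mmp12 level was 7.74 FPKM in NormMg-LFD and 10.03 FPKM in LowMg-LFD mice, against 90.1 FPKM in NormMg-HFD and 52.1 FPKM in LowMg-HFD mice. The Mmp12 level therefore differed more between the LFD and HFD groups than the marker sum did. Over the 19 mice, r between the log2 levels of Mmp12 and of the marker sum was 0.97, and 0.92 for deviations from the group means. In bulk tissue, more cells of a type and more RNA per cell cannot be told apart, here or for the other members.

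**Figure D3:**
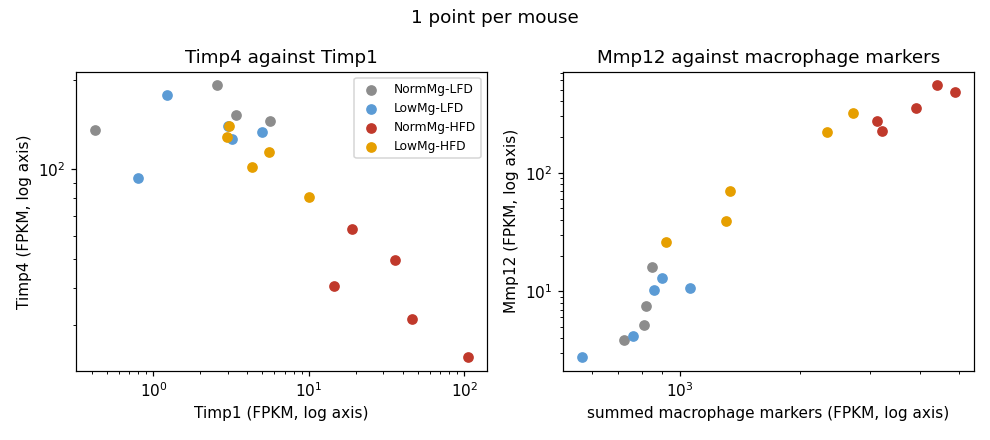
Left, Timp4 against Timp1, and right, Mmp12 against the summed level of 16 macrophage markers, in FPKM on log axes, with 1 point per mouse coloured by group. NormMg-HFD mice lie apart at high Timp1 and low Timp4, and LowMg-HFD mice 1 and 2, with marker sums of 2716 and 2341 FPKM, lie next to the NormMg-HFD mice on the right.

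Mmp2, the gelatinase A made by stromal cells, was at 20.0, 19.2, 29.4 and 18.6 FPKM in the NormMg-LFD mice and at 75.8, 70.5, 65.3, 61.1 and 44.7 FPKM in the NormMg-HFD mice. The groups did not overlap, the ratio of the means was 2.91, and Mmp2 rose by 1.501 ± 0.23 on the log2 scale (adjusted p = 4.79e-05, limma). As the NormMg-HFD mice also entered the choice of the set, this p is a description. In the LowMg-HFD mice it was at 37.3, 37.9, 21.8, 30.9 and 19.04 FPKM, which overlapped the LowMg-LFD mice (13.7 to 29.4 FPKM), and the difference of 0.51 ± 0.22 did not pass (adjusted p = 0.122, limma).

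Mmp14, the membrane-bound enzyme that activates Mmp2, was at 18.6, 18.9, 31.85 and 19.7 FPKM in the NormMg-LFD mice and at 49.9, 50.2, 52.8, 50.3 and 35.8 FPKM in the NormMg-HFD mice. The ratio of the means was 2.15, and Mmp14 rose by 1.09 ± 0.21 on the log2 scale with fat on the normal Mg2+ diet (adjusted p = 0.000373, limma). On the low Mg2+ diet it was at 20.5 to 30.0 FPKM with the HFD and 11.95 to 28.8 FPKM with the LFD, a difference of 0.45 ± 0.20 (adjusted p = 0.13, limma). The levels of Mmp14 and Mmp2 moved together from mouse to mouse (r = 0.97, and 0.87 for deviations from the group means), and in NormMg-LFD both were highest in mouse 4, 1 of the libraries with high Mmp7.

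LowMg-LFD mouse 4, the library with epididymis RNA, had the highest Mmp2 and Mmp14 values of its group. Without that mouse Mmp14 and Mmp2 passed the threshold for fat on the low Mg2+ diet, with differences of 0.61 (adjusted p = 0.0293, limma) and 0.65 (adjusted p = 0.0491, limma). Mmp14 also passed without the libraries with pancreas or epididymis RNA (adjusted p = 0.0341, limma) and without the 4 with high Mmp7 (adjusted p = 0.0215, limma). Mmp2 did not pass in either of these settings, which leave out the same mouse among others. The 12 stromal progenitor markers, with the proteoglycan gene Dcn as the highest, summed to 880 to 1138 FPKM in NormMg-LFD and 1068 to 1280 FPKM in NormMg-HFD mice. These ranges overlap. The sum had an r of 0.91 with Timp2, 0.79 with Mmp14 and 0.51 with Mmp2 for deviations from the group means, and for Mmp2 that with the macrophage marker sum was 0.62.

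Mmp19, a soluble enzyme that cleaves basement membrane proteins, was within 17.55 to 18.9 FPKM in the NormMg-LFD mice. It was at 62.4, 35.9, 59.7, 41.8 and 37.8 FPKM in the NormMg-HFD mice, a ratio of the means of 2.61, and rose by 1.30 ± 0.18 on the log2 scale (adjusted p = 1.65e-05, limma). In LowMg-HFD mice it was at 21.2 to 35.05 FPKM and in LowMg-LFD mice at 15.8 to 25.9 FPKM, with a difference of 0.33 ± 0.17 (adjusted p = 0.204, limma). Per 1000 FPKM of macrophage markers its median was 23.0 FPKM in NormMg-LFD and 12.2 FPKM in NormMg-HFD mice, the reverse of the order seen for Mmp12.

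**Figure D4:**
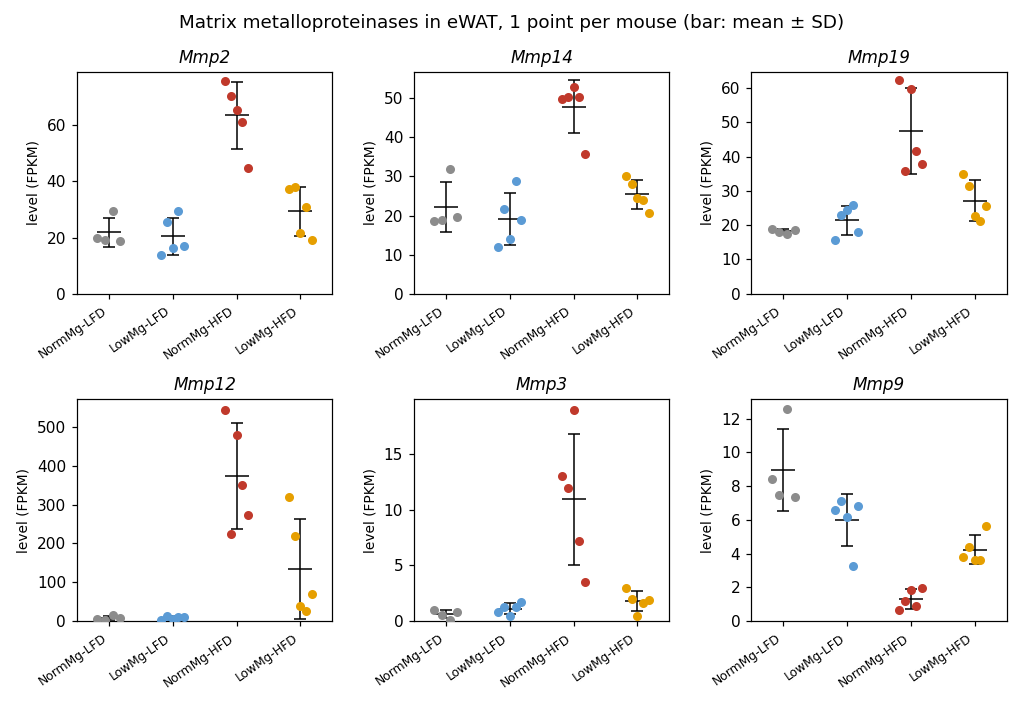
Level in FPKM (y axis, from 0, with a scale of its own in each panel) of the 6 metalloproteinase genes in each mouse (points) by diet group (x axis), with the group mean and SD as bars. Mmp2, Mmp14, Mmp19, Mmp12 and Mmp3 are highest on average in NormMg-HFD mice, whereas Mmp9 is lowest there, at 0.64 to 1.97 FPKM.

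Mmp3 and Mmp9 did not pass the filter of 8 FPKM, and their tests come from the fit over the 13454 genes that passed a filter of 1 FPKM, which Mmp3 passed only through the HFD groups. Mmp3, which cleaves several matrix proteins and activates other MMPs, was at 0.96, 0.58, 0.1 and 0.77 FPKM in the NormMg-LFD mice and at 13.1, 11.99, 19.03, 7.23 and 3.51 FPKM in the NormMg-HFD mice. The LowMg-HFD mice (0.48 to 2.97 FPKM) all lay below the NormMg-HFD mice and overlapped the LowMg-LFD mice (0.48 to 1.73 FPKM). With fat, Mmp3 rose by 2.76 ± 0.35 on the normal Mg2+ diet, with a ratio of the means of 18.2 (adjusted p = 1.08e-05, and 5.34e-05 without a filter, limma), and its difference on the low Mg2+ diet was 0.37 ± 0.33 (adjusted p = 0.534, limma).

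Mmp9, the gelatinase B, moved against the other proteinases. It was at 8.44, 7.48, 12.6 and 7.34 FPKM in the NormMg-LFD mice, at 6.57, 7.12, 6.18, 3.29 and 6.84 FPKM in the LowMg-LFD mice, at 0.64, 1.19, 1.85, 0.89 and 1.97 FPKM in the NormMg-HFD mice and at 3.82, 4.37, 3.6, 3.63 and 5.65 FPKM in the LowMg-HFD mice. Every NormMg-HFD mouse lay below every mouse of the other groups, and the mean of NormMg-LFD was 6.85 times that of NormMg-HFD. Mmp9 fell by 2.12 ± 0.22 on the log2 scale with fat on the normal Mg2+ diet (adjusted p = 2.62e-06, limma). The difference on the low Mg2+ diet was -0.40 ± 0.20 (adjusted p = 0.235, limma). As for the other members, these contrasts use HFD mice that entered the choice of the set, so the p values are descriptions. Its r with the macrophage marker sum over the 19 mice was -0.86, but -0.14 for deviations from the group means.

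In all, 5 of the 6 members tested after the filter of 8 FPKM passed the threshold for fat on the normal Mg2+ diet, 4 of them higher (Mmp2, Mmp12, Mmp14 and Mmp19) and 1 lower (Timp3), where 37.4% of the 8336 genes tested did. That count includes Mmp12, which the filter admitted through the HFD groups, and is given as a description. In the fit with the filter of 1 FPKM, where Mmp3 and Mmp9 also passed, the share of genes called was 30%. The values of NormMg-HFD and NormMg-LFD mice did not overlap for any of the 10 members, nor for 27% of the 13454 genes over 1 FPKM. Nothing is read from either count, since the second includes Timp1 and Timp4, and this contrast uses the NormMg-HFD mice that also enter the contrast by which the set was chosen. For fat on the low Mg2+ diet 1 of 6 members, again Mmp12, passed, where 15.9% of all genes did (10.4% with the filter of 1 FPKM), and the groups did not overlap for 1 of 10 members, against 7.07% of the genes over 1 FPKM.

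Between LowMg-LFD and NormMg-LFD mice, 0 of 8 members passed the threshold, and so did 0% of the genes tested with either filter, 0% of 8336 and 0% of 13454 genes. At an unadjusted p under 0.05, 547 and 850 genes were counted. Of the members only Mmp9 was among them (-0.51 ± 0.22, unadjusted p = 0.0288, adjusted p = 0.789, limma), and it was the only member whose groups did not overlap, against 1.66% of the genes over 1 FPKM. Timp1, which passed the filter only through NormMg-HFD mice and lay under it in both LFD groups, and Timp4 were tested here, with differences of -0.07 ± 0.52 (adjusted p = 0.988, limma) and -0.24 ± 0.23 (adjusted p = 0.871, limma). The differences of the other members lay between -0.34 ± 0.17 for Timp2 and 0.39 ± 0.35 for Mmp3.

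Between LowMg-HFD and NormMg-HFD mice, the contrast by which the set was chosen, the sizes are given as a description. Timp3, Timp4 and Mmp9 were higher on average in LowMg-HFD mice, by 0.64 ± 0.16, 1.47 ± 0.22 and 1.199 ± 0.20 on the log2 scale. Timp1, Timp2, Mmp2, Mmp3, Mmp12, Mmp14 and Mmp19 were lower, with differences of -2.64 ± 0.49, -0.48 ± 0.16, -1.11 ± 0.22, -2.002 ± 0.33, -2.002 ± 0.57, -0.89 ± 0.20 and -0.77 ± 0.17. The groups overlapped for Timp3 and Mmp12 and not for the other 8 members, against 9.91% of the genes over 1 FPKM without overlap. All 8 members that passed the filter were past the threshold, where 18.5% of all genes were, and nothing is read from that count. The smallest difference was that of Timp2, whose lowest NormMg-HFD value of 206 FPKM stood against a highest LowMg-HFD value of 182 FPKM.

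**Figure D5:**
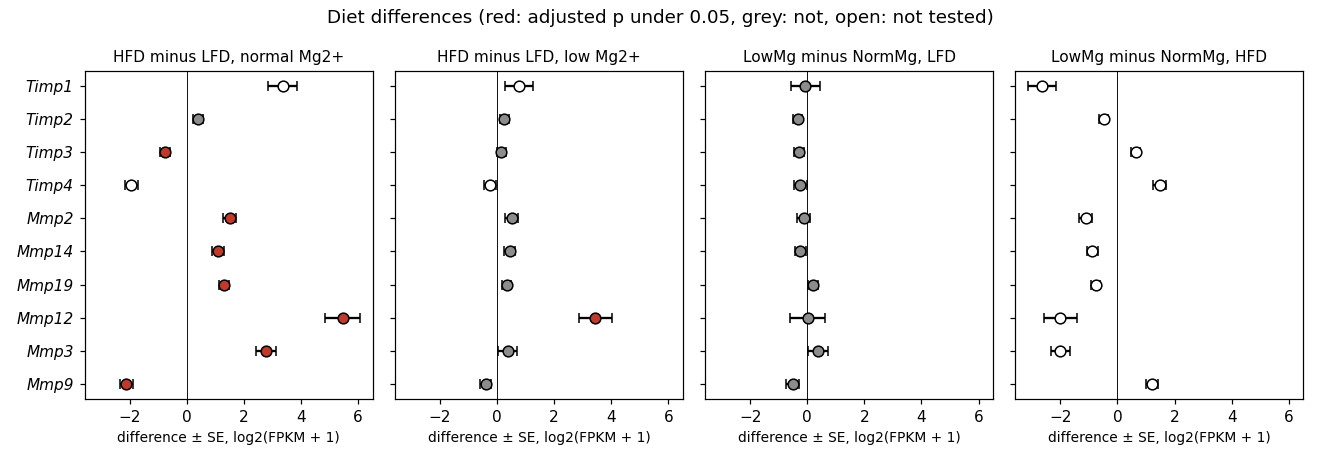
Difference ± SE on the log2(FPKM + 1) scale (x axis) of each member (y axis) in 4 contrasts between diet groups, from the limma fit over all genes. Red points passed an adjusted p of 0.05, grey points did not and open points were not tested. Timp1 and Timp4 lie on opposite sides of 0 in the first and last panels, at 3.35 and -1.95 and at -2.64 and 1.47.

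The interaction, which sets the Mg2+ contrast in HFD mice against that in LFD mice, contains the difference between the HFD groups by which the set was chosen, so its sizes are a description as well and no p is given for a member. It was called for 0 of the 6 members counted after the filter of 8 FPKM (limma), where 1.25% of the genes were called. At an unadjusted p under 0.05, 5 of these 6 members and 1698 of the 8336 genes were counted, and nothing is read from these counts. The sizes were -0.97 ± 0.25 for Mmp19, 0.92 ± 0.24 for Timp3, -0.99 ± 0.32 for Mmp2 and -2.01 ± 0.83 for Mmp12. They were smaller for Mmp14 (-0.64 ± 0.28) and Timp2 (-0.15 ± 0.23). For Timp1 and Timp4, which were not counted, the sizes were -2.57 ± 0.71 and 1.71 ± 0.32. With the filter of 1 FPKM, where 0.357% of genes were called, Mmp3 (-2.39 ± 0.48) and Mmp9 (1.71 ± 0.30) were past the threshold, and were not in 21 and 17 of 28 alternatives. Over all genes, the 104 interaction calls went to 0 when 1 of 8 of the 19 mice was left out (NormMg-LFD 2 or 3, NormMg-HFD 1, 3 or 4, LowMg-HFD 3 or 5, LowMg-LFD 5) and to 482 without LowMg-HFD mouse 2. No further gene is therefore named for the interaction.

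The other genes of the pathway were read from lists written for this purpose. Of 17 further MMP genes, 14 were in the table and 3 passed the filter, Mmp11, Mmp23 and Mmp28. Mmp11, the stromelysin 3, passed it only through the HFD groups. Its rise of 0.67 ± 0.22 with fat on the normal Mg2+ diet is therefore given as a description. Between the HFD groups Mmp28, or epilysin, was 0.60 ± 0.15 higher in LowMg-HFD mice (adjusted p = 0.00962, limma). Mmp8, the neutrophil collagenase, and Mmp10 did not exceed 0.56 and 0.22 FPKM in any mouse, and Mmp13, the main collagenase of the mouse, was at 0.77 to 1.7 FPKM in NormMg-HFD mice and at no more than 0.58 FPKM elsewhere.

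Of 18 ADAM and ADAMTS genes, relatives of the MMPs that shed cell surface proteins or cut proteoglycans, 12 passed the filter. With fat on the normal Mg2+ diet, where 37.4% of all genes were called, 7 rose and 0 fell, with Adam8 (3.89 ± 0.39), Adam12 (1.41 ± 0.17), Adam19 (1.06 ± 0.17) and Adam17 (0.86 ± 0.17), which releases tumour necrosis factor from the cell surface, in the lead. The median of the 12 was 0.50, against 0.07 over all genes. In NormMg-LFD and LowMg-LFD mice Adam8 averaged 5.10 and 4.54 FPKM and Adam19 averaged 4.12 and 3.76 FPKM. These genes passed the filter of 8 FPKM only through groups fed fat, so the counts and medians of this list are descriptions. On the low Mg2+ diet, where 15.9% of all genes were called, 3 of the 12 rose, with a median of 0.35 against 0.10 over all genes and with Adam8 at 2.28 ± 0.37 and Adam10 and Adam9 at 0.37 ± 0.12 and 0.32 ± 0.10. Between the HFD groups, where 18.5% of all genes were called, 5 of the 12 were lower in LowMg-HFD mice, with a median of -0.23 against -0.04 over all genes and with Adam8 at -1.77 ± 0.37.

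Of 18 genes for MMP activation and for further inhibitors, 13 passed the filter, and with fat on the normal Mg2+ diet 5 rose and 2 fell, where 37.4% of all genes were called. The median of the 13 was 0.62 in that contrast, 0.20 with fat on the low Mg2+ diet and -0.24 between the HFD groups, against 0.07, 0.10 and -0.04 over all genes. The largest differences were in Cd44, a hyaluronan receptor that can hold MMPs at the cell surface (3.05 ± 0.31), and Plaur, the urokinase receptor (1.92 ± 0.24). Next were the proprotein convertase gene Pcsk6 (-1.06 ± 0.28) and Thbs2, a thrombospondin (1.02 ± 0.22). In NormMg-LFD and LowMg-LFD mice Cd44 averaged 5.58 and 5.88 FPKM, Plaur 4.33 and 5.86 FPKM and Thbs2 6.25 and 4.71 FPKM. These genes passed the filter of 8 FPKM only through groups fed fat, so the counts and medians of this list are descriptions. On the low Mg2+ diet 5 rose and 0 fell, where 15.9% of all genes were called, with Thbs1 at 1.61 ± 0.49 and Cd44 at 1.51 ± 0.29. Between the HFD groups, where 18.5% of all genes were called, 4 of the 13 were lower in LowMg-HFD mice, with Cd44 at -1.53 ± 0.29 and Plau, the urokinase that starts plasmin formation, at -0.70 ± 0.15.

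The matrix proteins on which these enzymes act were read from 20 genes, all of which passed the filter. With fat on the normal Mg2+ diet, where 37.4% of all genes were called, 15 rose and 0 fell, with a median of 0.95 against 0.07 over all genes. With fat on the low Mg2+ diet, where 15.9% were called, 12 rose and 0 fell, with a median of 0.58 against 0.10. On the normal Mg2+ diet the largest rises were in Spp1, or osteopontin (3.43 ± 0.59), the proteoglycan gene Lum (2.04 ± 0.19) and the collagen genes Col3a1 (1.62 ± 0.18) and Col6a3 (1.61 ± 0.19). Spp1 averaged 3.49 FPKM in NormMg-LFD, 1.53 FPKM in LowMg-LFD and 7.15 FPKM in LowMg-HFD mice. It passed the filter of 8 FPKM only through NormMg-HFD mice, so its rise is a description. Col3a1 had a mean of 285 FPKM in NormMg-LFD, 250 FPKM in LowMg-LFD, 888 FPKM in NormMg-HFD and 354 FPKM in LowMg-HFD mice. Between the HFD groups, where 18.5% of all genes were called, 15 were lower in LowMg-HFD mice and 0 higher, with a median of -0.70 against -0.04 over all genes. Between the LFD groups no gene of these lists was called.

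Adipocyte markers summed to 19502 to 26437 FPKM in NormMg-LFD, 13939 to 19050 FPKM in NormMg-HFD and 18171 to 23126 FPKM in LowMg-HFD mice. With fat on the normal Mg2+ diet 9 of the 12 markers fell and 1 rose, where 37.4% of all genes were called. Over the 19 mice r between Timp4 and this sum was 0.77, but 0.16 for deviations from the group means. For the neutrophil marker sum these values were -0.88 and -0.68. Per 1000 FPKM of adipocyte markers, the Timp4 level was 5.68 to 7.48 FPKM in NormMg-LFD, 1.68 to 3.47 FPKM in NormMg-HFD, 3.89 to 6.28 FPKM in LowMg-HFD and 3.11 to 8.38 FPKM in LowMg-LFD mice. On this scale the median of LowMg-LFD mice (4.62 FPKM) lay below that of LowMg-HFD mice (5.64 FPKM), and the LowMg-LFD range overlapped that of NormMg-HFD mice, which differs from the Timp4 levels themselves. Endothelial markers summed to 416 to 605 FPKM over the 19 mice with overlap between all groups, and mesothelial markers to 43.9 to 126 FPKM in NormMg-LFD against 12.4 to 28.4 FPKM in NormMg-HFD mice. The part of adipocyte, mesothelial or neutrophil content in the Timp4 level was not tested.

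The genes with a pattern most like Timp1 over the 19 mice were Gm10275 (r = 0.96), the ribosomal protein gene Rps3 (0.96), Emb (0.96), Npm1 (0.96), which encodes a nucleolar protein, and Gm9843 (0.95), and their r for deviations from the group means was 0.82 to 0.87. Those most like Timp4 were Slc25a23, a mitochondrial carrier (r = 0.95), Eepd1 (0.95), Raver2 (0.95), Pxmp2, a peroxisomal membrane protein (0.94), and Apcdd1 (0.94), with r for deviations from the group means of 0.64 to 0.76. All mice of a group share a diet and the libraries share their normalization, so these values are descriptions.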

How the data were processed

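RNA-seq was performed on eWAT from 19 mice of 4 diet groups, with 50-base single-end reads. According to the study's methods and the labels, the authors mapped the reads to GRCm38/mm10 with HISAT and Bowtie2 and quantified genes with RSEM 1.2.31. They deposited FPKM values for each gene and mouse, and a table of read counts and percent mapped per library. Estimated gene counts were not used here. Columns headed LowMgD were taken as LowMg-LFD by their wording, and 0 columns of values were left unused. Symbols turned into dates (26) were restored, and 1 gene with a cell that was no number was left out.

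With the cut-off named in the study's methods, read here as FPKM, a gene was kept if 1 of the groups averaged more than 8 FPKM and 4 or more of its mice exceeded 8 FPKM (8336 genes). Read on the log2 scale, as log2(FPKM + 1) over 3, and without LowMg-HFD mouse 4, the filter kept 8808 genes, which was run as an alternative. Differences were tested with limma 3.58.1 (R 4.3.3) on log2(FPKM + 1) in a model of 4 group means with an intensity trend, with Benjamini-Hochberg adjustment over all genes tested and a threshold of 0.05. Differences on this scale understate the change of low genes. The test was checked on simulated data in which 200 of 8336 genes changed, in NormMg-HFD mice only. For the fat contrast on the normal Mg2+ diet, 92% of genes changed by a log2 difference of 1 were called, and 44% of those changed by 0.5. For Mg2+ on the LFD, where no gene was changed, 0% were called. False calls in the fat contrast were not counted. The noise was drawn independently for each gene, and far fewer genes changed than the 37.4% called in the data, so these shares may not carry over. Each group holds different mice. Same-numbered mice of different groups had correlations of -0.18 to 0.34 in their deviations from the group means, with 5 of 27 pairs over 0.1, so the numbers were not treated as pairing.

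The members and the lists of pathway and marker genes were chosen with earlier results of these data known. Named genes were the 10 members, the synapsin genes that hold Timp genes, up to 4 genes of each pathway list with the largest differences among those past the threshold, the highest gene of a marker list, and the 5 genes most like Timp1 and Timp4 by Pearson r. Genes named to describe libraries that stand apart (Mmp7, S100a9, Csf3r, Cxcr2, Retnlg, Ly6g, Camp, Elane, Mpo and Ltf) and low MMP genes (Mmp8, Mmp10, Mmp13) were chosen after their values were seen. Figures were drawn with matplotlib. Alternatives changed the pseudocount, the filter, the scaling, the groups fitted, the trend and the block, and left out each mouse in turn.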

Additional observations from a re-analysis of the deposited data

Results flagged for a closer look

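In a group of 4 or 5 mice, a value is flagged where its gap to the nearest other value, on the log2(FPKM + 1) scale, takes up an unusually large part of the range by Dixon's test. This held in 5 of 40 groups checked, and chance alone flags about 1 in 20. Timp2 was highest in NormMg-HFD mouse 1, at 239 FPKM. Mmp2 (29.4 FPKM) and Mmp14 (31.9 FPKM) were both highest in NormMg-LFD mouse 4, without which the means of the group were 19.3 ± 0.67 and 19.1 ± 0.56 FPKM (SD, n = 3). Mmp14 was lowest in NormMg-HFD mouse 5, at 35.8 FPKM, and Mmp9 was lowest in LowMg-LFD mouse 4, at 3.29 FPKM.

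The interaction for Mmp9 and Mmp3 was 1.71 and -2.39 on the log2 scale in the fit with the filter of 1 FPKM. It is listed because both were past the threshold of 0.05 (limma) there. It contains the difference between the HFD groups by which the set was chosen (1.199 for Mmp9 and -2.002 for Mmp3), so it is no independent test, and the call was lost under most alternatives.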

How the results depend on the processing

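The number of members called for fat on the normal Mg2+ diet was 5 and ranged from 5 to 6 without any single mouse. For fat on the low Mg2+ diet it was 1, ranged from 1 to 3 without any single mouse (3 without LowMg-LFD mouse 4), and was 2 both without the libraries with pancreas or epididymis RNA and without the 4 libraries with high Mmp7, settings chosen after seeing the data. For the interaction it was 0, ranged from 0 to 2 without any single mouse, and was 2 with the filter of 1 FPKM, 2 with median centring, 2 with quantile normalization and 1 with the filter on log2(FPKM + 1) over 3 in 18 samples. The interaction count was 2 without NormMg-HFD mouse 5, LowMg-HFD mouse 1 or LowMg-HFD mouse 2, and 1 without NormMg-HFD mouse 2 or LowMg-LFD mouse 1. Between the HFD groups the count of 8 ranged from 6 to 8 without any single mouse, and between the LFD groups it was 0 under every alternative run. The cause of these shifts was not tested.

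A fit with the replicate number as a block gave counts of 5, 1, 0, 7 and 0 in the same contrasts (fat on the normal and the low Mg2+ diet, Mg2+ on the LFD and the HFD, interaction), and 0 interaction calls over all genes against 104 without it. Of 19 mice, 3 had their highest correlation with a mouse of another group that bore their own number. Under the block the Mg2+ difference on the LFD turned to 0.013 for Timp1 and to -0.10 for Mmp12.

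Directions turned elsewhere only for differences near 0. On the LFD, Timp1 ranged from -0.50 to 0.24 and Mmp12 from -0.23 to 0.36 without any single mouse, and Mmp2 from -0.26 to 0.024, the last without NormMg-LFD mouse 4. Timp1 was at 0.20 without the 4 libraries with high Mmp7, and Mmp12 at -0.36 without those with pancreas or epididymis RNA. The Timp2 interaction was 0.00084 without the pancreas or epididymis libraries and 0.017 without the 4 with high Mmp7. No direction of a member turned under another pseudocount, filter or scaling. Read numbers per gene were not used here, so no counting interval is given, and Mmp3 and Timp1 in the LFD groups lay at 5.58 FPKM or less.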
